A study of Mus musculus with 29 samples.

Results

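Expression of 9 genes that carry nutrients, hormones, lipids and drugs across the blood-brain barrier was examined in single cells of the mouse brain after stroke. The genes were taken by name and not by a threshold on measured values, though with earlier results of these data known. They make up 9 of the 19704 genes in the tables of young brain. Slco1a4 and Slco1c1 encode organic anion transporters, of which Slco1c1 carries thyroid hormone. Abcb1a (P-glycoprotein) and Abcg2 (breast cancer resistance protein) encode pumps that export drugs back to the blood. Slc2a1 (GLUT1) carries glucose and Slc16a1 (MCT1) carries lactate and ketone bodies. Slc7a5 (LAT1) and Slc3a2 (its heavy chain, CD98) form an exchanger of large neutral amino acids, and Mfsd2a carries lysophosphatidylcholine with its omega-3 fatty acids.

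The endothelial cells of brain capillaries are sealed to each other by tight junctions, so that most solutes pass only where a transporter takes them. This property depends on Wnt signals that the neural tissue sends to the endothelium, read there through beta-catenin and factors of the TCF/LEF family. Mfsd2a is also known as a brake on vesicle traffic through the endothelial cell. After an ischaemic stroke the barrier is known to leak.

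Cells came from C57BL/6J mice whose middle cerebral artery was occluded for a time and reopened (stroke), or that had sham surgery, and were profiled by Drop-seq, in which single cells are caught in droplets with barcoded beads. For young males, aged 8 to 10 weeks, 12 brain libraries were used: 4 made 2 days after sham surgery, 4 made 2 days after stroke and 4 made 14 days after stroke. For older mice of 17 to 20 months, called aged below, 6 were used: at day 2 a male and a female sham library, at day 2 after stroke a male library with 2 female ones, and at day 14 after stroke 1 female library. Each library pooled 4 to 5 hemispheres, dissociated with papain in the presence of actinomycin D, an inhibitor of transcription, and sorted for CD45-high leukocytes, microglia and endothelial cells. The sham libraries, all of day 2, serve as the reference for both times after stroke. Nothing in the labels says how the pools relate to each other, so p-values measure the spread between these pools. The aged libraries came in a table of 27514 genes, and 4 of them were female whereas all young ones were male. Age therefore cannot be told apart from the gene table and is mixed with sex.

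The 18 brain libraries held 1143 to 5121 cells and 819438 to 5855047 counts each. Of 55268 cells, 7627 carried the authors' code for endothelial cells (EC), 176 to 1171 per library. All 10 endothelial marker genes examined were detected in the EC cells of every library. Their summed level ranged from 12650 to 30459 CPM, the counts of a gene scaled to 1000000 counts of the endothelial cells of its library, over all groups. Leukocyte markers summed to 0 to 409 CPM in the 18 EC sums and microglial markers to 0 to 118 CPM. Mural markers summed to 54.0 to 831 CPM, so mural transcripts were present in every library. Pdgfrb, a defining gene of pericytes, was at 0 in every young library. The mural sum there came from other markers of the list. Haemoglobin genes and Alas2, which mark red blood cells, varied from 0 to 9732 CPM among young libraries and were at 0 in aged ones. The young libraries fell into a pair of sets by the median mitochondrial share of their EC cells, 0.496% to 1.12% in sham replicate 1 and replicates 1 and 2 of both stroke times, against 5.47% to 8.62% in the other 7. Of all cell barcodes, 91 occurred in more than 1 library, at most 3 in any pair of libraries.

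Of the 13 cell types of the deposited annotation, levels were taken where a library held at least 20 cells of the type. Among the types with such a level, EC had the highest median over libraries for each of the 9 genes. Pooled over libraries, EC held 99.2% of all Slco1a4 counts, 98.8% of Slco1c1, 97.7% of Mfsd2a and 96.4% of Abcb1a. By the median over libraries the order differed, with Mfsd2a at 100.0% (81.8% to 100.0%), Slco1a4 at 99.4% and Slco1c1 at 99.0%. The share was 83.3% for Abcg2, 82.4% for Slc2a1, 79.1% for Slc16a1 and 76.2% for Slc7a5, and in single libraries it ran from 53.1% to 98.0% for Abcg2, 63.7% to 99.3% for Slc2a1, 54.9% to 95.5% for Slc16a1 and 20.3% to 100.0% for Slc7a5. The medians over libraries were 82.3% for Abcg2, 82.8% for Slc2a1, 80.1% for Slc16a1 and 78.8% for Slc7a5. Slc3a2, whose product pairs with several amino acid transporters and also with integrins, was the exception, with 20.5% of its counts in EC. The authors formed the types from the expression of these cells, so the contrast between types is a description.

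**Figure D1:**
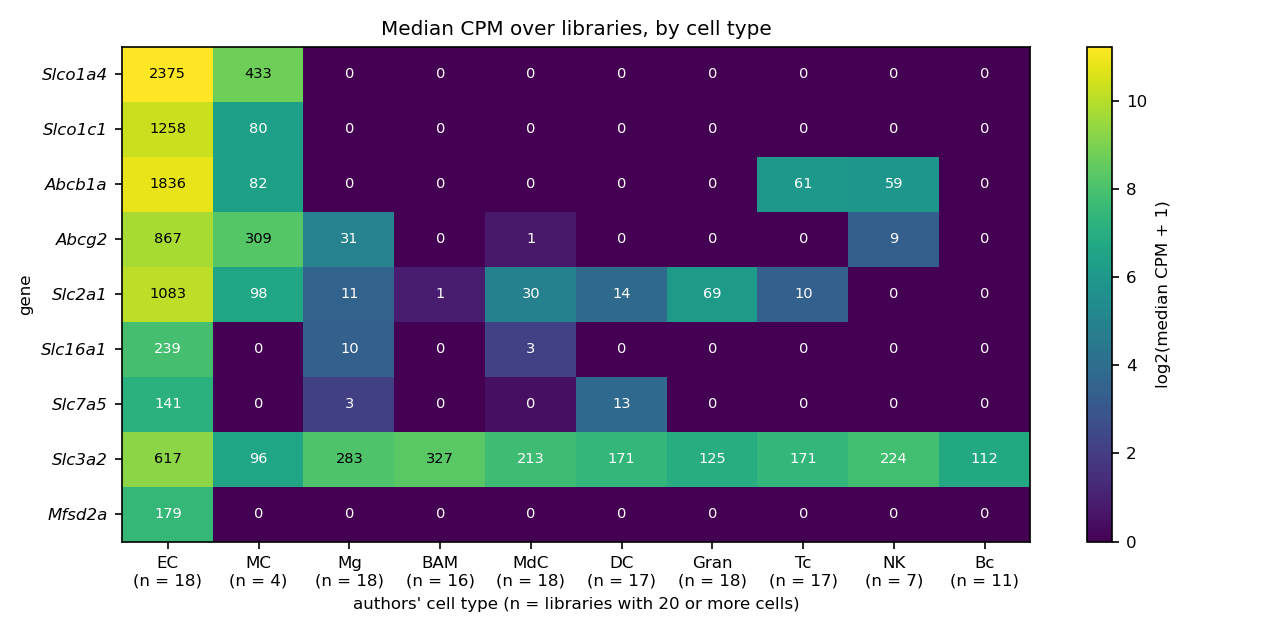
Median CPM of the 9 transporter genes (rows) in 10 of the cell types (columns), printed in each cell of the map and coloured by log2 of the median plus 1, over the brain libraries with at least 20 cells of the type (n under each column). Slco1a4 lies at a median of 2375 CPM in EC against 433 CPM in the mural cells (MC, 4 libraries), while Slc3a2 lies at 617 CPM in EC and at 283 CPM in microglia (Mg).

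Levels outside EC followed a different order for each gene. Slco1a4 had its next highest median in mural cells (433 CPM, 0 to 1193 in 4 libraries), and so did Abcg2 (309 CPM, 77.1 to 396) and Slc2a1 (98.1 CPM, 0 to 247). The mural range of Slco1a4 and of Slc2a1 included 0. Abcb1a was present in T cells (Tc, median 61.5 CPM, 0 to 216 in 17 libraries) and NK cells (59.0 CPM, 0 to 80.8 in 7 libraries), whose ranges overlapped. Abcg2 was found in microglia at a median of 30.7 CPM (0 to 51.6 in 18 libraries). Slc2a1 reached 68.6 CPM in granulocytes (Gran, 0 to 363) and 29.8 CPM in monocyte-derived cells (MdC, 0 to 100.4). Slc3a2 was detected across leukocytes, with medians of 327 CPM in border-associated macrophages (BAM, 78.5 to 422) and 283 CPM in microglia (214 to 371). The deposited counts are fractional, and values near 0 in cells that lack a gene would each become 1 if rounded up. Slco1a4 in microglia, for example, summed to 0 counts as deposited and to 185 counts rounded up. In EC the deposited sums were 97.9% to 99.5% of the rounded-up ones for the 9 genes.

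The windows upstream of the transcription start show how differently the members are built at the promoter, and are given for the 2 genes of the same chromosome segment that changed together and for 1 gene of the opposite base composition. The genes Slco1c1 (chr6:141524368-141570177, plus strand) and Slco1a4 (chr6:141805440-141856199, minus strand) lie near each other in mm10, and no annotated gene overlaps either. Slc16a1 lies at chr3:104638668-104658462 on the plus strand and overlaps the predicted genes Gm43581 and Gm43585 on its strand. Sequences are from RefSeq on GRCm38.p6, 5′ to 3′ on the strand of the gene, 250 bases long, and span chr6:141524104-141524353 for Slco1c1, chr6:141856221-141856470 for Slco1a4 and chr3:104638414-104638663 for Slc16a1. Capitals mark matches on either strand to the searched motifs.
Slco1c1: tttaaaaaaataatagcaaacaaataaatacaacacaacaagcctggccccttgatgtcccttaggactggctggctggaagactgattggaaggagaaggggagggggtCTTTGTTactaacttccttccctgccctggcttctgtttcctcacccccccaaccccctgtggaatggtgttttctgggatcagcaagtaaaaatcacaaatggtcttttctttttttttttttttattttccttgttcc
Slco1a4: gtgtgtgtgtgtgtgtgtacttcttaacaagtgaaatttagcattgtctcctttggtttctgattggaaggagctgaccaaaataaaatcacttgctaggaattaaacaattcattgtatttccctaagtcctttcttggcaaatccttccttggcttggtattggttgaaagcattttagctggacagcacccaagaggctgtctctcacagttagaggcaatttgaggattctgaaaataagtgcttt
Slc16a1: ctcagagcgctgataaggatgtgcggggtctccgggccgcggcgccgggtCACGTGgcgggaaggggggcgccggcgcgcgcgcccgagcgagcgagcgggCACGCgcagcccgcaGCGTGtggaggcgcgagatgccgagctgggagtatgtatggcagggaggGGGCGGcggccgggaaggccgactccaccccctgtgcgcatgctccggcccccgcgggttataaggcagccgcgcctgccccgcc

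The motifs were the TCF/LEF core (CTTTGAA, also with AT, TA or TT in place of the last AA), the hypoxia core (ACGTG or GCGTG), the amino acid response element (TGATGNAA) and the GC box (GGGCGG). Matches may overlap, and overlapping ones were counted separately. The CACGTG of the Slc16a1 window, which matches on both strands, thus counts as 2 hypoxia cores. Of 32851 mouse promoter windows of this length, 14.8% held the TCF/LEF core, 38.6% the hypoxia core, 3.45% the amino acid response element and 32.7% the GC box. The Slco1c1 window held 1 TCF/LEF core, the Slco1a4 window none of the 4 motifs, and the Slc16a1 window 4 hypoxia cores and 1 GC box. Their GC content was 42.8%, 39.2% and 76.4%, against a median of 52.4% over all windows. Of the other members with a window, Slc2a1 had 66.4% GC with 2 hypoxia cores and 2 GC boxes, Mfsd2a had 61.6% GC with 4 hypoxia cores, and Slc3a2 had 53.6% GC with 1 TCF/LEF core, 1 hypoxia core and 1 GC box. Abcg2 had 3 windows of up to 67.6% GC with 0, 2 and 4 GC boxes and no other match. The Slc3a2 window (chr19:8713898-8714147) lies inside the gene in the GENCODE annotation (chr19:8706882-8723369, minus strand), away from its start. The Abcg2 windows with 2 and 4 GC boxes (chr6:58596422-58596671 and chr6:58640296-58640545) also lie inside their gene (chr6:58584523-58695676, plus strand). Their matches and those of Slc3a2 are thus not at the annotated gene start. A match says only that these letters are present. A window was found for 8 of the 9 genes, all but Slc7a5, and that of Abcb1a (chr5:8566841-8567090) lies far from the start of the gene in the GENCODE annotation (chr5:8660077-8748575), so it is not shown. Other annotated genes overlap Slc2a1 (Mir1957a, Gm12867 and Gm12868), Abcb1a (Gm42684 and Gm42686) and Slc7a5 (Gm20388), and how reads in such overlaps were counted is not given in the sources used here.

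At day 2 after stroke, transcripts of both organic anion transporters and of P-glycoprotein fell in endothelial cells of young mice. Slco1a4 stood at 2921, 3656, 3961 and 3968 CPM in the 4 sham libraries and at 1131, 764, 1573 and 1469 CPM in the 4 stroke libraries. Every stroke library lay below every sham library. Slco1a4 fell by 1.47 ± 0.25 on the log2 scale (SE, n = 4 against 4), to 0.360 of the sham level, with an adjusted p of 0.00286 in edgeR's quasi-likelihood test with Benjamini-Hochberg adjustment over 5833 genes, the test behind each adjusted p below. Slco1c1, the thyroid hormone carrier, had 1895, 1272, 1767 and 1615 CPM in sham and 678, 477, 718 and 657 CPM after stroke. The groups were again apart, and Slco1c1 fell by 1.28 ± 0.21 to 0.413 of the sham level (adjusted p = 0.00187). Abcb1a had 1832, 2675, 3190 and 2857 CPM in sham and 745, 658, 915 and 829 CPM after stroke. Its stroke libraries lay close together, below the lowest sham library, and Abcb1a fell by 1.67 ± 0.24 to 0.315 of the sham level (adjusted p = 0.00123).

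Of all genes tested in this comparison 13.3% were called and 6.45% were called lower, against 3 of the 9 transporters, all lower. The 9 were chosen with earlier results of these data known, so this contrast is a description. Each of the 3 calls held when any 1 library was left out and under DESeq2. Over all genes 402 were called higher and 376 lower, but 302 higher and 467 lower without TMM, the scaling that corrects libraries for composition. Among the 7 libraries of the higher mitochondrial share alone, Slco1a4 had a log2 fold change of -1.25 (adjusted p = 0.00396), Slco1c1 of -1.08 (adjusted p = 0.0162) and Abcb1a of -1.65 (adjusted p = 0.00299). Every library was lower than every library of the other group for 9.19% of all genes.

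The remaining 6 transporters did not pass the test at day 2. Abcg2, the other drug pump, had 857, 1085, 971 and 1006 CPM in sham and 467, 536, 823 and 838 CPM after stroke. Its log2 fold change was -0.47 ± 0.24 (adjusted p = 0.204), and after TMM scaling the groups overlapped. Mfsd2a had 314, 191, 246 and 174 CPM in sham and 99.4, 54.8, 183 and 161 CPM after stroke. The lowest stroke values of Mfsd2a came from replicates 1 and 2, the libraries of low mitochondrial share, and the log2 fold change was -0.79 ± 0.29 (adjusted p = 0.0780). Without the 5 libraries of low mitochondrial share it was -0.16 (adjusted p = 0.689).

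For glucose and lactate the groups overlapped. Slc2a1 had 2026, 1405, 1076 and 863 CPM in sham and 1150, 1053, 985 and 1145 CPM after stroke, and its log2 fold change of -0.21 ± 0.24 had a 95% interval from -0.69 to 0.27 (adjusted p = 0.590). Slc16a1 had 369, 180, 178 and 166 CPM in sham and 166, 109, 204 and 167 CPM after stroke, with a log2 fold change of -0.40 ± 0.32 and an interval from -1.04 to 0.23 (adjusted p = 0.416). Sham replicate 1, of low mitochondrial share, was the highest of its group for both genes, and without it the log2 fold changes were -0.0029 for Slc2a1 and -0.080 for Slc16a1. Bsg (basigin), the chaperone that brings MCT1 to the membrane, ranged from 10274 to 14598 CPM in sham and from 3045 to 8747 CPM after stroke. Its groups did not overlap, but its log2 fold change of -0.93 ± 0.32 missed the threshold (adjusted p = 0.0649).

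The amino acid exchanger gave low and scattered values for its light chain. Slc7a5 had 344, 117, 110 and 144 CPM in sham and 97.1, 138, 98.3 and 94.9 CPM after stroke, with a log2 fold change of -0.69 ± 0.30 (adjusted p = 0.133). Sham replicate 1 again stood apart from the other 3, and without it the log2 fold change of Slc7a5 was -0.14 (adjusted p = 0.705). Slc3a2 had 824, 721, 634 and 604 CPM in sham and 370, 369, 755 and 821 CPM after stroke, so that the 2 stroke libraries of low mitochondrial share lay below the sham range and the other 2 within it. Its log2 fold change was -0.17 ± 0.29 (adjusted p = 0.725). All 9 transporters had a log2 fold change below 0, with a median of -0.69, where 49.7% of all tested genes were below 0 and their median was 0.00. The median of the 9 ranged from -0.82 to -0.56 with any 1 library left out, and Slc3a2 lay above 0 without stroke replicate 1 or 2. The number of genes below 0 among the 9 dropped to 6 among the libraries of higher mitochondrial share alone, in which Slc2a1, Slc16a1 and Slc3a2 had log2 fold changes of 0.01, 0.15 and 0.35.

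**Figure D2:**
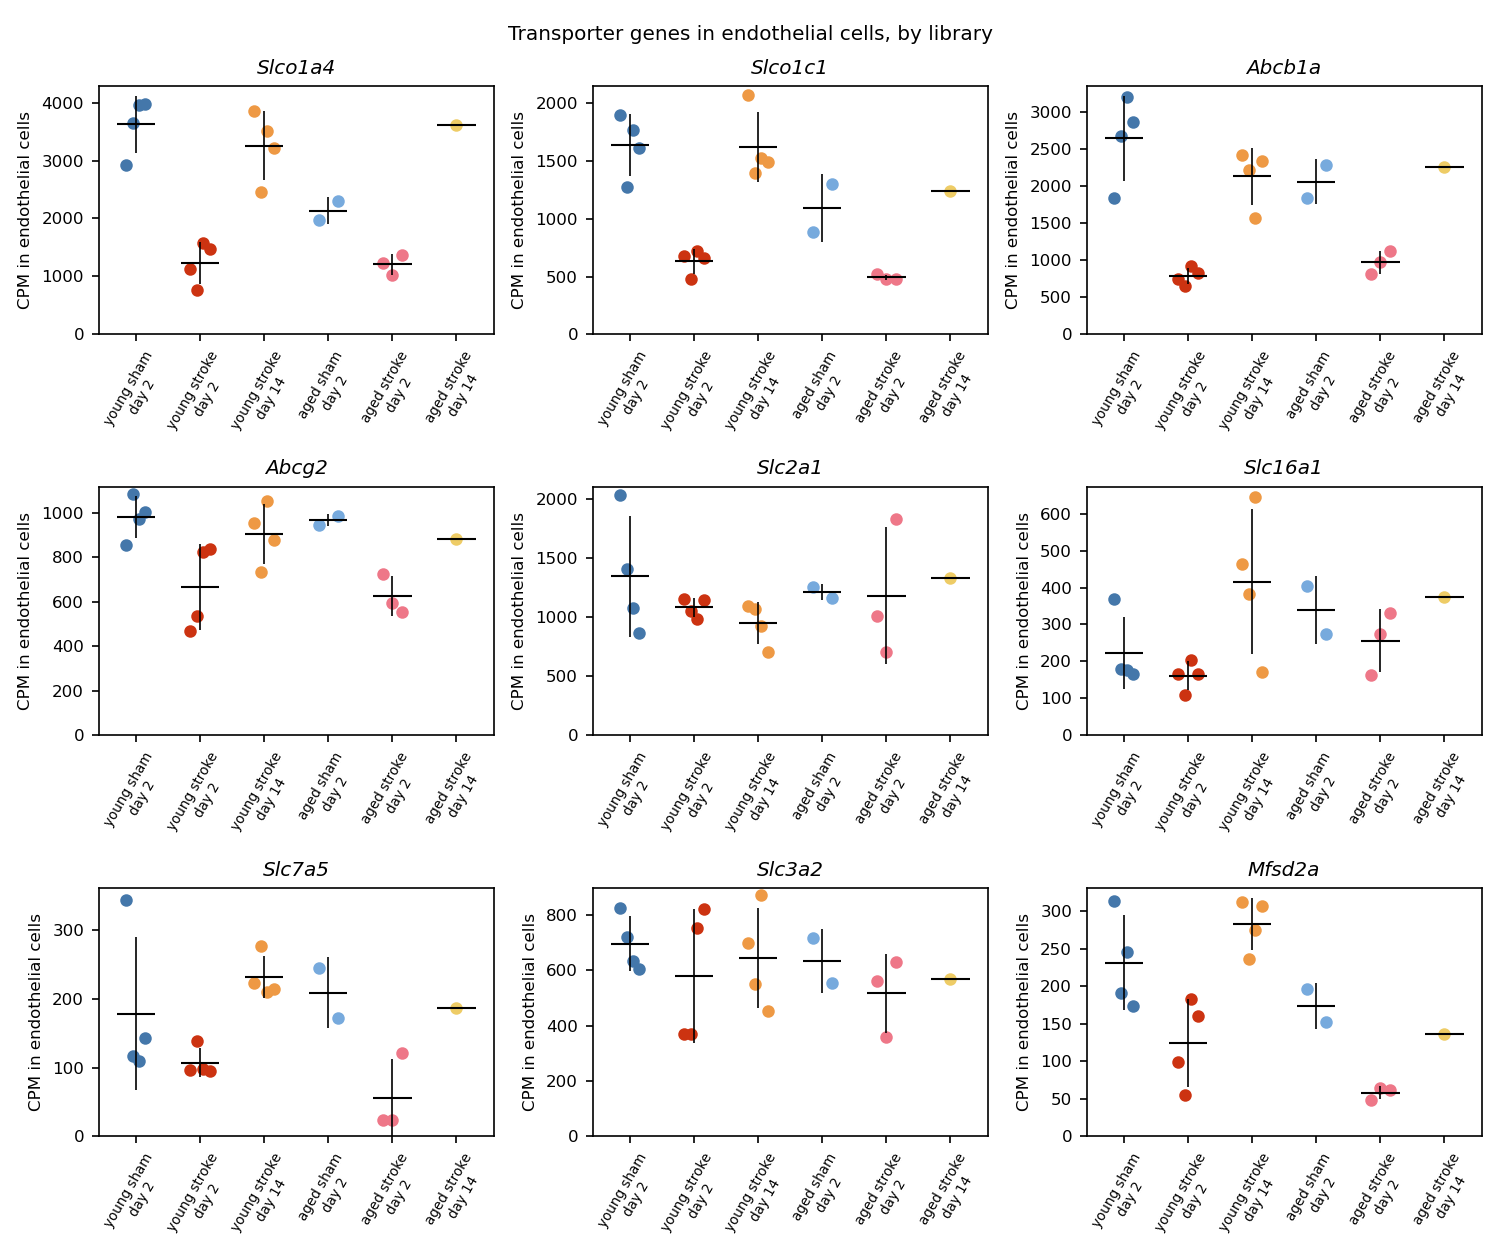
CPM of each transporter gene in the endothelial cells of every brain library, by group, 1 point per library, with horizontal lines for the group mean and vertical lines for 1 SD either side (none for the single aged library of day 14). The 4 stroke libraries of day 2 sit below the 4 sham libraries for Slco1a4, Slco1c1, Abcb1a and Abcg2, and the day 14 libraries of Slco1a4 return to 2453 to 3848 CPM.

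At day 14 none of the 9 transporters differed from sham by the test, which called 0% of all genes in this comparison. Slco1a4 had 3848, 2453, 3508 and 3219 CPM, 3 of them within the sham range and 1 below it, and a log2 fold change of -0.17 ± 0.25 (adjusted p = 0.985). Slco1c1 had 2069, 1400, 1530 and 1488 CPM and a log2 fold change of -0.02 ± 0.20 (adjusted p = 1.00), with a 95% interval from -0.42 to 0.38. Abcb1a had 2417, 2209, 1569 and 2330 CPM, with a log2 fold change of -0.33 ± 0.24 (adjusted p = 0.919) and an interval from -0.79 to 0.14. Abcg2 (956, 732, 1053 and 876 CPM) and Slc3a2 (697, 552, 871 and 455 CPM) overlapped with sham. Slc2a1 had 1090, 1069, 924 and 705 CPM, the lowest group mean of the 3 young groups at 947 ± 178 CPM (SD, n = 4), and a log2 fold change of -0.50 ± 0.25 (adjusted p = 0.820), or -0.29 without sham replicate 1.

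Some values of day 14 lay above sham without passing the test. Slc16a1 had 464, 382, 645 and 172 CPM, of which replicates 1 to 3 exceeded every sham library and replicate 4 lay within the sham range. Its log2 fold change of 0.87 ± 0.32 had an unadjusted p of 0.0152 in edgeR's test and an adjusted p of 0.717. Mfsd2a had 312, 237, 275 and 308 CPM and Slc7a5 had 224, 277, 211 and 215 CPM, both overlapping with sham. In this comparison edgeR called 0% of the 5833 genes. An unadjusted p under 0.05 was found for 356 of them, and the calls of DESeq2 were 10 genes, none of them a member.

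Between the 2 stroke times, 6 of the 9 transporters rose from day 2 to day 14, where 11.2% of all genes were called and 5.07% were called higher. Abcb1a rose by 1.34 ± 0.24 on the log2 scale (adjusted p = 0.00303), Slco1a4 by 1.30 ± 0.25 (adjusted p = 0.00457) and Slco1c1 by 1.26 ± 0.21 (adjusted p = 0.00219). For these 3, every day 14 library lay above every day 2 library, and the calls held with any 1 library left out. Slc16a1 rose by 1.28 ± 0.31 (adjusted p = 0.0179), with 1 day 14 library inside the day 2 range. Mfsd2a rose by 1.07 ± 0.28 (adjusted p = 0.0240) and Slc7a5 by 1.02 ± 0.29 (adjusted p = 0.0355), both with groups apart. Abcg2 (0.33 ± 0.24), Slc3a2 (0.05 ± 0.29) and Slc2a1 (-0.29 ± 0.24) did not pass the test. Every library was higher than every library of the other group for 9% of all genes. The called genes were 296 higher and 358 lower, but 405 higher and 244 lower without TMM, which moved the median over all genes from 0.02 to 0.12 on the log2 scale and left the same number of transporters called.

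The calls of day 14 against day 2 for Slc16a1, Mfsd2a and Slc7a5 were lost in some fits with 1 library left out, in which the log2 fold changes stayed at 0.99 to 1.47 for Slc16a1, 0.84 to 1.28 for Mfsd2a and 0.90 to 1.17 for Slc7a5. Slc16a1 was lost without day 2 replicate 1 or day 14 replicate 3, with adjusted p-values up to 0.0651. Mfsd2a was lost without day 2 replicate 1 or without day 14 replicate 1, 3 or 4, up to an adjusted p of 0.0882, and Slc7a5 was lost in 7 of the 8 such fits, all but that without day 2 replicate 2, up to 0.102. Among the libraries of higher mitochondrial share alone, 2 per stroke time, 133 genes were called and Slco1a4 was the single transporter among them (log2 fold change of 1.02, adjusted p = 0.0348). There Slco1c1 had 1.00 (adjusted p = 0.0765), Abcb1a 1.03 (adjusted p = 0.0634), Slc7a5 1.00, Slc16a1 1.07 and Mfsd2a 0.63. The share of red blood cell transcripts and the mural markers also varied between these libraries, and their part in the result was not tested.

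**Figure D3:**
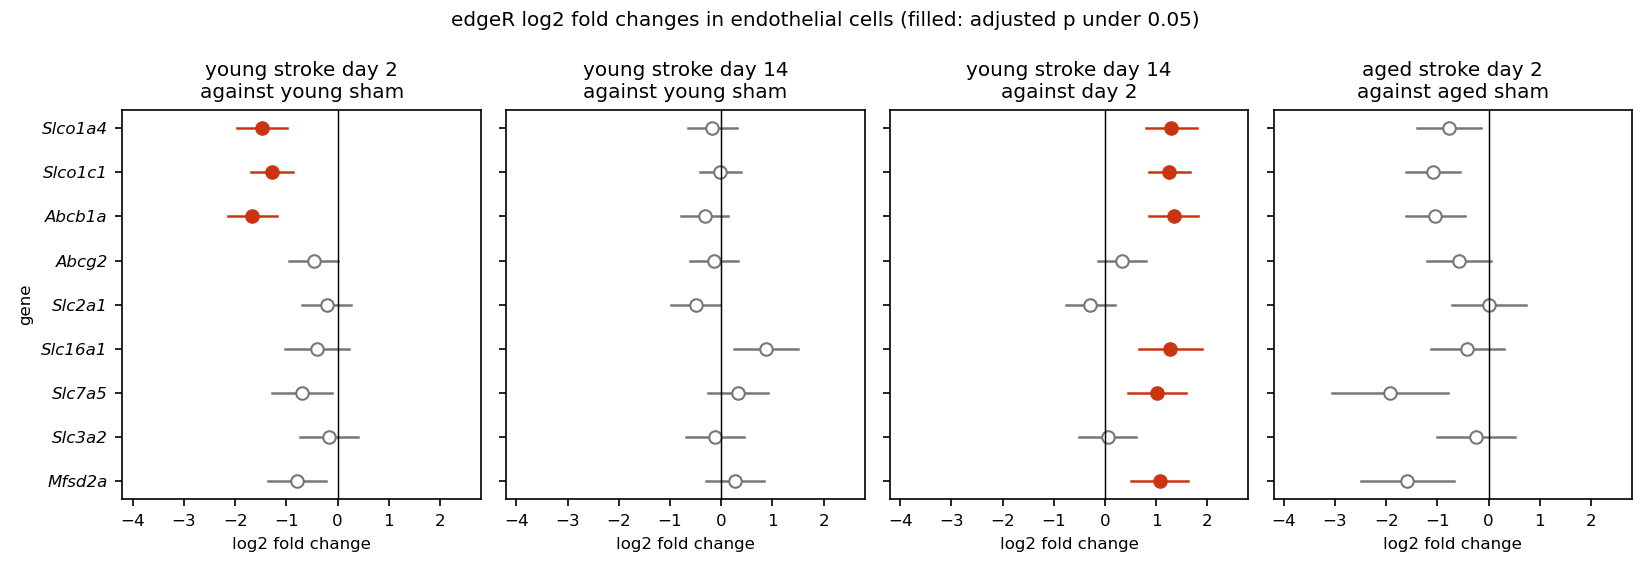
Log2 fold changes of the 9 transporter genes in endothelial cells with 95% intervals, for the 3 comparisons among young groups and for day 2 in aged mice, filled where the adjusted p was under 0.05. Slco1a4, Slco1c1 and Abcb1a lie at -1.47, -1.28 and -1.67 at day 2 and near 0 at day 14, whereas the interval of Slc2a1 includes 0 at day 2.

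A sum over all endothelial cells mixes the subtypes EC1 to EC9 of the deposited annotation, whose shares moved with stroke. EC1 made up 47.4% to 67.8% of the endothelial cells in young sham libraries, 19.4% to 27.8% at day 2 and 30.7% to 59.9% at day 14. EC2 was rare in sham (0.339% to 5.49%) and at day 14 (0.315% to 4.75%), but was the largest subtype at day 2 with 32.7% to 59.2%. EC3 was highest at day 14 with 22.1% to 36.3%, against 3.73% to 13.7% in sham. The sum weighs the subtypes by their counts. Of the endothelial counts, EC2 held 41.7% to 69.4% at day 2 and 0.207% to 4.71% in young sham. EC1 held 11.2% to 25.9% of them at day 2 and 41.6% to 63.7% in young sham. In the sum, a shift between subtypes and a change within cells cannot be told apart. The authors made the subtypes from these cells' expression, so the values below describe them.

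In the 4 stroke libraries of day 2, EC2 cells held less of the transporters than EC1 cells of the same library. Slco1a4 averaged 568 ± 165 CPM in EC2 against 2287 ± 574 CPM in EC1 (SD, n = 4). Slco1c1 averaged 266 ± 45.4 against 1186 ± 191 CPM, and Abcb1a 353 ± 47.5 against 1447 ± 487 CPM. EC2 was the lower of the pair in all 4 libraries for each of these 3 genes. The low genes followed, with Slc16a1 at 68.5 ± 24.9 against 389 ± 85.7 CPM, Mfsd2a at 50.1 ± 16.9 against 265 ± 86.0 CPM and Slc7a5 at 51.8 ± 14.3 against 272 ± 212 CPM, again lower in 4 of 4. Slc2a1 (843 ± 112 against 1456 ± 288 CPM) and Slc3a2 (416 ± 130 against 938 ± 385 CPM) were lower in EC2 in 4 of 4 libraries by a smaller ratio. Abcg2 was lower in 3 of 4 (450 ± 44.1 against 1035 ± 421 CPM). No share over all genes stands beside these counts, so they do not set the members apart from other genes.

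Within EC1 the 3 transporters that fell in the sum were also lower at day 2 than in sham, without passing the test. Slco1a4 in EC1 cells averaged 4256 ± 390 CPM in sham and 2287 ± 574 CPM at day 2, ranges of 3895 to 4736 and 1442 to 2680 CPM that did not overlap. In a fit of EC1 cells alone, its log2 fold change was -0.87 (adjusted p = 0.0932), that of Slco1c1 was -0.58 (adjusted p = 0.197) and that of Abcb1a was -1.12 (adjusted p = 0.0663). That fit called 13 of 2174 genes. With only the EC2 cells left out, the fit called 55 of 4941 genes, among them Abcb1a at -1.10 (adjusted p = 0.0412). Slco1a4 then had -0.93 (adjusted p = 0.0560) and Slco1c1 -0.70 (adjusted p = 0.0893). The median over the 9 genes was -0.13 in EC1 and -0.15 without EC2, against -0.69 over all endothelial cells. None of the 6 rises from day 2 to day 14 was called in EC1 alone or without EC2, fits that called 21 of 2174 and 29 of 4941 genes. Their log2 fold changes were 0.41 (Slc7a5) to 0.76 (Abcb1a) in EC1 and 0.46 (Slc7a5) to 0.78 (Abcb1a) without EC2.

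In EC1 the ranges of Abcb1a were also apart (2350 to 3747 CPM in sham, 964 to 2117 CPM at day 2), but those of Slco1c1 overlapped (1281 to 2242 and 1009 to 1453 CPM). The other 6 members overlapped as well. No share over all genes in EC1 stands beside these ranges, so they do not set the members apart from other genes. Slc2a1 averaged 1401 ± 644 CPM in sham EC1 and 1456 ± 288 CPM at day 2, and Slc16a1 averaged 312 ± 194 and 389 ± 85.7 CPM. Mfsd2a averaged 301 ± 105 CPM in sham EC1, 265 ± 86.0 CPM at day 2 and 408 ± 22.9 CPM at day 14. In sham, EC3 and EC5 held Slco1a4 at 3518 ± 914 CPM (n = 3) and 3884 ± 758 CPM (n = 2), ranges that overlapped with EC1. Abcb1a in EC5 lay below EC1, at 1872 and 2334 CPM. EC4 differed by gene: in sham it held Slco1c1 at 1835 ± 126 CPM, within the range of EC1, but Slc16a1 at 52.2 ± 53.6 CPM and Slc7a5 at 50.2 ± 45.5 CPM. EC6 at day 2 had low Slco1c1 (235 ± 99.5 CPM, n = 3) beside Slc2a1 at 1381 ± 421 CPM.

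**Figure D4:**
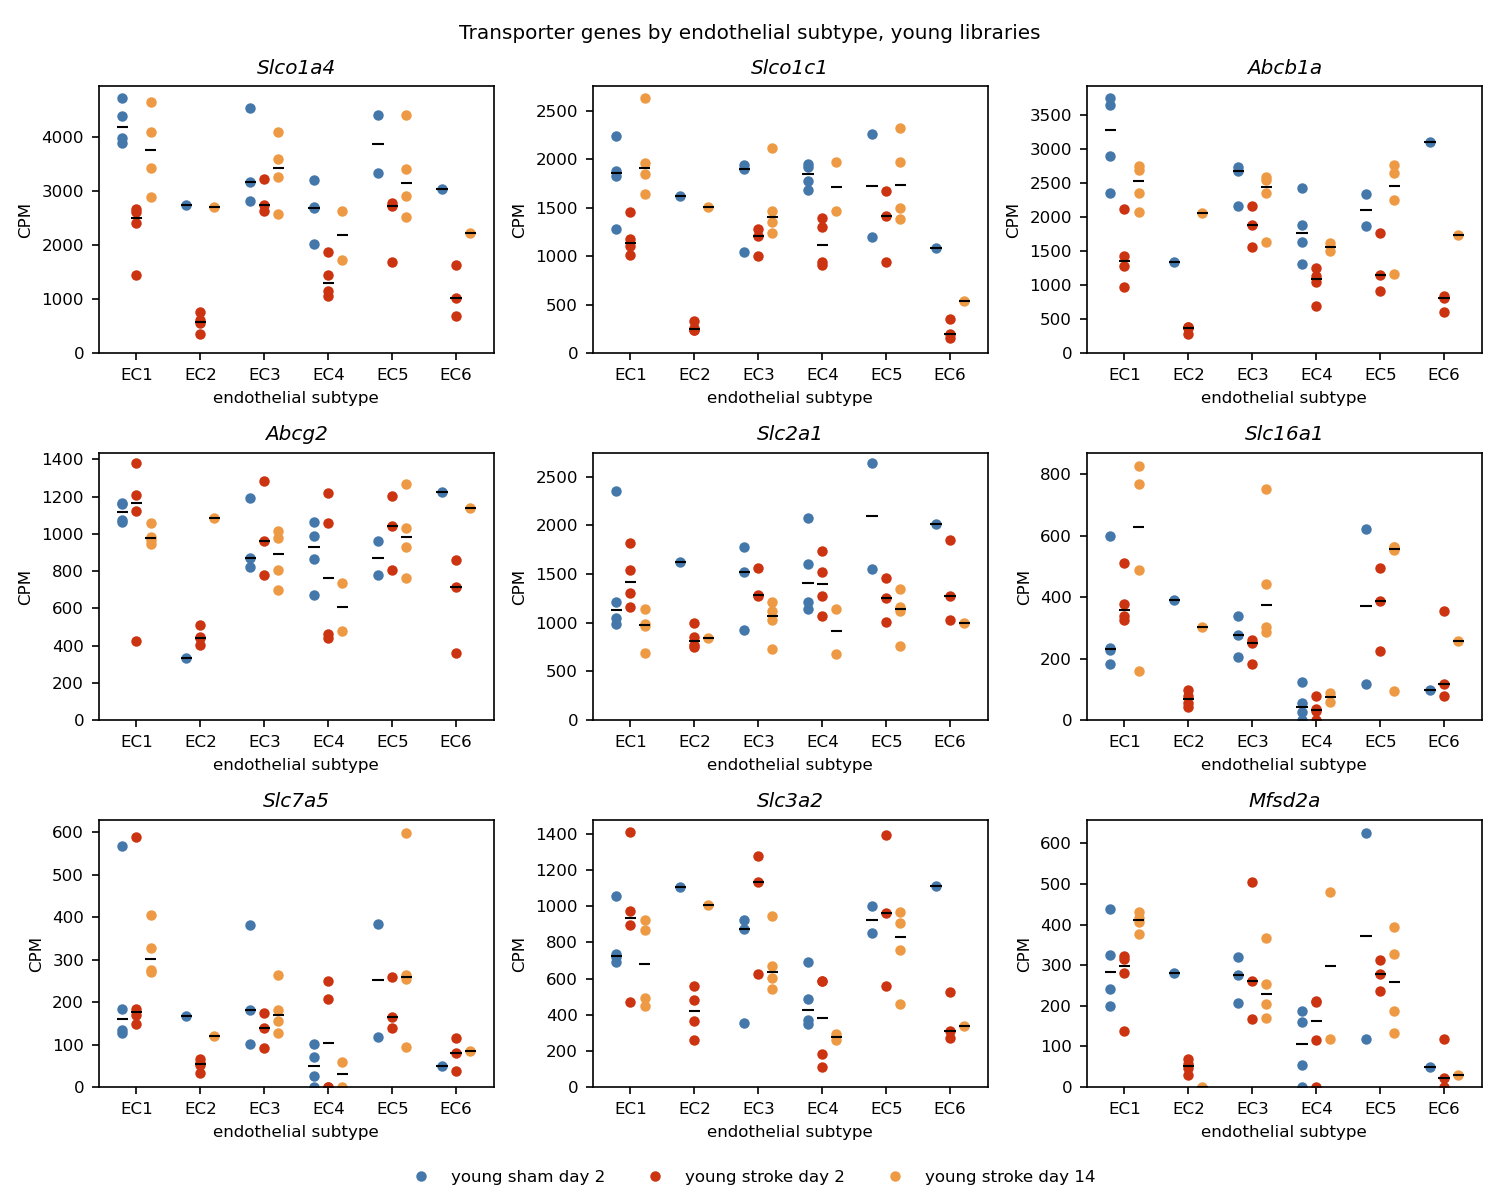
CPM of each transporter gene in the endothelial subtypes EC1 to EC6 of young sham, stroke day 2 and stroke day 14, 1 point per library with at least 20 cells of the subtype and a short line at the median. At day 2 EC2 has the lowest mean of these subtypes for Slco1a4 (568 CPM) and Abcb1a (353 CPM), while EC4 is low for Slc16a1 in sham (mean of 52.2 CPM).

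In aged mice at day 2 the values of 6 transporters lay apart between stroke and sham, but none passed the test in this small comparison. Slco1a4 had 1971 and 2296 CPM in sham (male and female) and 1230, 1021 and 1376 CPM after stroke (1 male, 2 female). Slco1c1 had 882 and 1301 CPM in sham and 522, 476 and 481 CPM after stroke, with a log2 fold change of -1.09 ± 0.27 (adjusted p = 0.0801, n = 2 against 3, in edgeR's test over 6604 genes). Both genes had every stroke library below both sham libraries. Abcb1a had 1839 and 2275 CPM in sham and 811, 975 and 1119 CPM after stroke, a log2 fold change of -1.04 ± 0.29 (adjusted p = 0.128). Mfsd2a had 196 and 152 CPM in sham and 48.1, 64.5 and 61.2 CPM after stroke, a log2 fold change of -1.59 ± 0.47 (adjusted p = 0.141). The 3 aged stroke values of Mfsd2a rest on 28.9 counts in all, so their spread cannot be set against that of young mice. Slc7a5 had 246 and 173 CPM in sham and 24.0, 23.7 and 122 CPM after stroke, a log2 fold change of -1.93 ± 0.58 (adjusted p = 0.151). Abcg2 had 946 and 985 CPM in sham and 727, 594 and 556 CPM after stroke.

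Slc2a1 (1255 and 1159 CPM in sham, 1006, 707 and 1824 CPM after stroke), Slc16a1 (404 and 274 against 164, 273 and 332 CPM) and Slc3a2 (717 and 554 against 563, 357 and 631 CPM) overlapped. In the aged comparison 0.606% of the genes were called, and every library was lower than every library of the other group for 12.7% of them. DESeq2 called 108 of 6604 genes, among them Slco1c1 (adjusted p = 0.00240) and Abcb1a (adjusted p = 0.0123). Without a filter on low counts edgeR called 135 of 17587 genes, among them Mfsd2a (adjusted p = 0.0174) and Slc7a5 (adjusted p = 0.00122). Slc7a5 was also called without the second female stroke library, which held its 122 CPM (log2 fold change of -3.10, adjusted p = 0.0266). The 3 aged stroke values of Slc7a5 rest on 26.8 counts in all, part of them in that library. These calls of Slc7a5 thus rest on few counts. The single aged library of day 14 had Slco1a4 at 3611 CPM, Slco1c1 at 1243 CPM, Abcb1a at 2248 CPM and Mfsd2a at 136 CPM, with no replicate.

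The effect of stroke at day 2 was not shown to differ between ages for any of the 9 genes. The difference in log2 fold change, aged minus young, was 0.67 ± 0.41 for Slco1a4, 0.60 ± 0.38 for Abcb1a, 0.16 ± 0.34 for Slco1c1, -0.82 ± 0.56 for Mfsd2a and -1.26 ± 0.70 for Slc7a5, with adjusted p-values of 0.847 to 0.960 in edgeR's test. With 1 library left out the value of Slc7a5 ranged from -2.40, without the second female stroke library, to -0.82, without the male stroke library. Of 6604 genes 0% were called for this difference, with 356 at an unadjusted p under 0.05. EC2 made up 0.840% to 3.76% of endothelial cells in aged sham and 50.5% to 72.1% in aged stroke. In EC1 cells of aged mice Slco1a4 had 2426 and 2870 CPM in sham and 3057 to 4425 CPM after stroke, the opposite order from the sum. EC2 cells of the 3 aged stroke libraries held 411 to 744 CPM of Slco1a4, and were below EC1 of the same library in 3 of 3 for all 9 genes. Here too no share over all genes stands beside the count.

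Outside endothelial cells, Slc3a2 was the member with calls. In monocyte-derived cells (MdC) it was at 57.7 ± 49.1 TMM-scaled CPM in sham (0 to 119), 348 ± 15.2 at day 2 (336 to 368) and 275 ± 58.7 at day 14 (193 to 320; SD, n = 4 each). Both stroke times lay above every sham library. Slc3a2 was higher in the MdC sums by 2.46 ± 0.38 on the log2 scale at day 2 (adjusted p = 0.00146, with 6.71% of 8080 genes called). At day 14 it was higher than in sham by 2.12 ± 0.39 (adjusted p = 0.00406, 5.15% called). Sham brain holds few such cells, 43 to 99 per library, with 0 to 8.12 counts of Slc3a2 each. With 1 sham library at 0, the gene passed the filter on low counts through the libraries after stroke. In these sums, a change in which cells make up MdC and a change within cells cannot be told apart. Both calls held with any 1 library left out and under every alternative tried, fits to which the same limits apply. In granulocytes (Gran) Slc3a2 rose by 1.64 ± 0.57 at day 14 against sham (adjusted p = 0.0414, 26.1% of 994 genes called), a call that was lost under DESeq2 (adjusted p = 0.0539), and without any single one of the 4 sham libraries or without day 14 replicate 1 or 3, up to an adjusted p of 0.294. In microglia Slc3a2 stood at 262 ± 25.8 TMM-scaled CPM in sham, 312 ± 63.3 at day 2 and 329 ± 96.2 at day 14 and was not called, where 31.4% of genes were called at day 2 and 15.2% at day 14. It was not called in BAM, DC or T cells either.

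The other genes of the barrier, in lists chosen with earlier results of these data known, were read from the same endothelial fits. Of 26 other barrier transporters tested among 30 listed, 9 were called lower at day 2, 1 was called higher and 16 were not called, with a median log2 fold change of -0.66. This list also holds receptor genes such as Tfrc, and it overlaps with others. It shares Tfrc and Slc22a8 with the capillary list, Slc7a1 and Slc38a2 with the amino acid stress list, and Lsr with the junction list. Such genes are counted in each list. Of all genes tested at day 2, 6.45% were called lower and 13.3% in either direction, the shares beside which the counts of each list stand. Among the lowest were Atp10a, a phospholipid flippase, at -1.82 ± 0.31 and Slc7a1, the cationic amino acid transporter, at -1.72 ± 0.23. Slc29a1, the nucleoside transporter ENT1, rose by 1.83 ± 0.34. Of 9 capillary genes, 4 were called lower, led by Spock2 at -1.69 ± 0.29, Tfrc, the transferrin receptor, at -1.47 ± 0.32, and the chemokine gene Cxcl12 at -1.28 ± 0.26.

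Of 19 genes of the Wnt beta-catenin list tested, 5 were called lower at day 2 and none higher, where 6.45% of all genes were called lower. The lowest were its feedback genes Axin2 at -2.51 ± 0.43 and Notum at -2.09 ± 0.33, followed by the transcription factor Lef1 at -1.17 ± 0.21. Of 11 junction genes 2 were called lower, Tjp1 (ZO-1) at -0.92 ± 0.21 and Ocln (occludin) at -0.77 ± 0.23. In the list of caveolae and vesicle traffic, Cavin2 was called lower (-1.01 ± 0.19) and Ehd4 higher (0.86 ± 0.23), with 4 of 6 not called. In the list of hypoxia and glycolysis Ldha (0.99 ± 0.22) and Pkm (0.92 ± 0.24) were called higher and Ndrg1 (-1.08 ± 0.25) lower of 13 tested. Of 5 genes tested from the amino acid stress (ATF4) list, Slc7a1 alone was called.

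Genes of larger vessels gave calls in both directions, where 13.3% of all genes were called. Among 10 venous genes, Selp (P-selectin), Ackr1, Nr2f2 and Vwf were called higher and none lower. Ackr1 rose by 2.83 ± 0.70 and Nr2f2, the venous transcription factor, by 1.79 ± 0.57. Selp was listed at a mean of 0 CPM in sham and 51.7 CPM at day 2, so it passed the filter on low counts only through libraries after stroke, and its call is no support for the list. Without it 3 of 9 venous genes were called higher. Among 10 arterial genes Gja4 was called higher (2.18 ± 0.48), and Alpl (-1.38 ± 0.36) and Efnb2 (-1.32 ± 0.31) lower. Of the relatives and partners list, 2 of 18 genes were tested: Bsg, given above, and Abcb1b, the second mouse gene of P-glycoprotein, with a log2 fold change of 0.40 ± 0.67 (adjusted p = 0.721) and 6.10 to 68.9 CPM over all 18 libraries. Abcb1a and Abcb1b are close relatives, and how reads shared by both were counted is not given in the sources used here.

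The comparison of day 14 with day 2 shares the day 2 libraries with that against sham, so the 2 are not independent. Of all genes 5.07% were called higher in it and 11.2% in either direction. Of the other barrier transporters 10 of 26 rose, among them Slc22a8, an organic anion transporter, at 1.67 ± 0.34 and Lrp8 at 1.51 ± 0.35. Of the Wnt list 10 of 19 rose, led by Axin2 at 2.70 ± 0.42, Notum at 1.80 ± 0.32 and Tcf7 at 1.11 ± 0.29. Of the capillary genes 5 of 9 rose. Bsg rose by 1.09 ± 0.32 (adjusted p = 0.0400). Tjp1 (0.78 ± 0.21) and Ocln (0.87 ± 0.23) rose, while Ehd4 (-1.21 ± 0.23) and Ldha (-1.24 ± 0.22) fell. At day 14 against sham none of these lists held a called gene, where 0% of all 5833 genes tested were called.

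**Figure D5:**
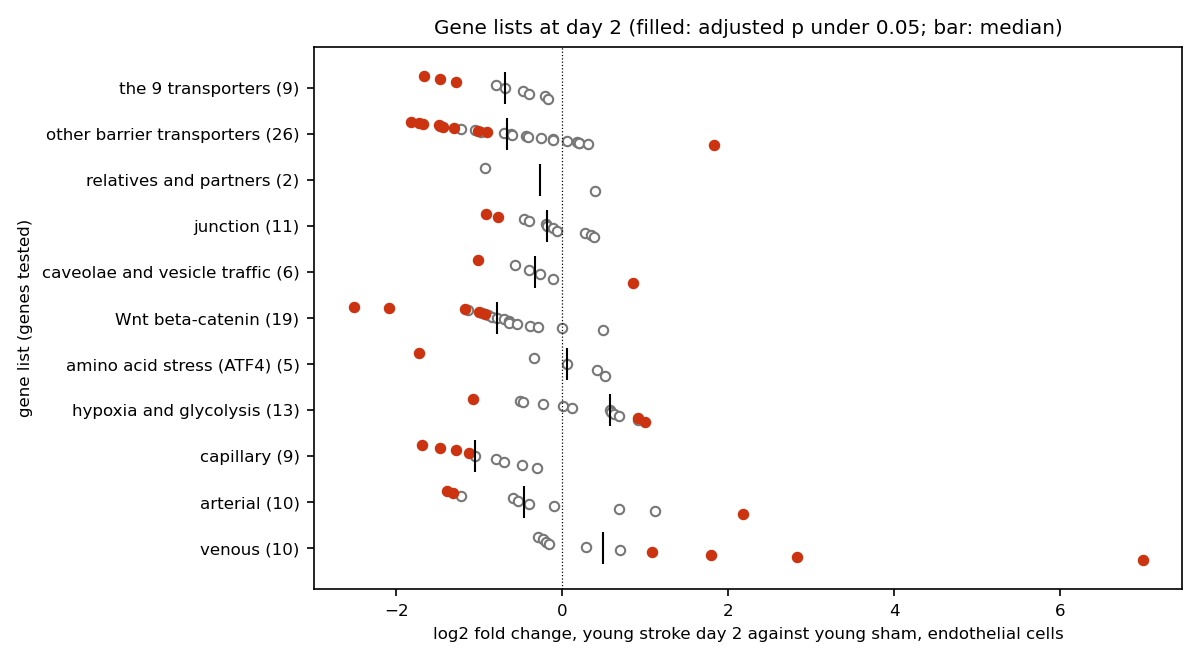
Log2 fold changes in endothelial cells at day 2 against sham for the genes of each list, 1 point per tested gene, filled where the adjusted p was under 0.05, with a vertical line at the median of the list. The 9 transporters have a median of -0.69 and the Wnt list of -0.78, against 0.00 over all genes; the rightmost point is Selp, listed at 0 in sham, whose fitted value depends on the prior count.

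Across the 12 young libraries, the members did not follow a single course. The endothelial log2 CPM of Slco1a4 correlated with those of Slco1c1 (Pearson r = 0.937) and Abcb1a (r = 0.935), while Slc2a1 had correlations of -0.194 to 0.268 with the other 8. These values describe 12 libraries that share the group means and the mitochondrial split, and carry no test. The 5 genes closest to the mean of the 9 members, standardised per gene, were Ypel3 (r = 0.957), Rarg (r = 0.945), Pllp (r = 0.944), Bsg (r = 0.939) and Axin2 (r = 0.928). Closest to Slco1a4 were Spock2 (r = 0.977) and Itih5 (r = 0.975), to Slco1c1 Slc7a1 (r = 0.961) and Hmgxb4 (r = 0.958), and to Abcb1a Lef1 (r = 0.967) and Slc39a10 (r = 0.966). Closest to Abcg2 were Selenop (r = 0.945) and Rrm2b (r = 0.875), and to Mfsd2a Maob (r = 0.957) and Tspan13 (r = 0.947). Slc7a5 was closest to Jup (r = 0.930) and Tnks1bp1 (r = 0.917), Slc3a2 to Cnppd1 (r = 0.889) and Fam45a (r = 0.888), Slc16a1 to Cst3 (r = 0.940) and Emp2 (r = 0.914), and Slc2a1 to Grasp (r = 0.881) and Ucp2 (r = 0.873).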

How the data were processed

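Expected counts per gene and cell of 18 brain libraries were read from the tables the authors deposited. They are fractional, mostly just under whole numbers, and the step that made them so is not given in the sources used here. Seurat and the build mm10 are named, without a role, in the submitters' processing notes. The deposited metadata give the cell types and the percent of mitochondrial counts per cell. The 11 blood libraries were not used.

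Expected counts were summed per library and type (at least 20 cells), divided by the type's total to give CPM, and rounded for edgeR 4.0.16 (R 4.3.3): quasi-likelihood test, TMM, filterByExpr, Benjamini-Hochberg over all genes, two-sided, called at an adjusted p under 0.05. Every cell of the deposited tables was kept, and doublets were not called. The young fit held 12 libraries and 5833 genes, the day 2 fit of both ages 13 libraries and 6604 genes. The F statistic of each fold change gave its standard error. The fits were also run on simulated counts with known changes. These counts were drawn independently, with the same spread for every gene and without the mitochondrial split or shifts between subtypes. They therefore do not test the fits under those features. Detection of a marker means a summed count above 0.

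The members and lists were chosen with earlier results of these data known. Named are the 9 members, per list and comparison up to 3 called genes at either end of the log2 fold changes, and the genes of highest correlation with the members (5 for their mean, 2 for each). One gene that this rule names is not reported here. Gene positions are from GENCODE vM21. The markers examined in EC were those of endothelial, microglial, leukocyte, mural and red blood cells. Alternatives were DESeq2 1.42.0, no TMM, no filter on low counts, counts rounded up, cells of 500 counts or more, cells with leukocyte markers left out, EC1 alone, EC2 left out, only the compared groups, sex, the replicate number as a block, each library left out in turn, and the mitochondrial split. Same-numbered libraries of the 2 stroke times deviated together (correlations of 0.139 to 0.478, 4 of 4 over 0.1), so the numbers were taken to pair them, from the data and not from the labels. The 2 libraries of each such pair also fell on the same side of the mitochondrial split. Libraries of different number on the same side correlated at 0.0606 to 0.286, so pairing by number was not separated from the split.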

Additional observations from a re-analysis of the deposited data

Results flagged for a closer look

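Of 27 groups of 4 libraries (9 genes in EC, 3 young groups), 3 held a library far from the others by Dixon's test at its 95% critical value, which chance reaches in about 1 of 20 groups. Sham replicate 1 had 368.64 CPM of Slc16a1, with the other sham libraries at 165.57 to 179.76 CPM. The same library had 344.35 CPM of Slc7a5, with the others at 109.96 to 143.6 CPM. It is the sham library of low mitochondrial share. Stroke day 2 replicate 2 had 138.26 CPM of Slc7a5, with the others at 94.914 to 98.271 CPM. Their cause was not tested.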

How the results depend on the processing

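Of 1355 values under alternative settings, 1191 kept their direction and their side of the threshold, and 71 changed sign, none of them a called value. The EC2 and mitochondrial alternatives and the block in the 2 stroke times alone were chosen after seeing the data. No technical batch is named in the metadata, so that alternative was not run.

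Genes called in EC moved by over 1.5 times as follows. At day 2 there were 415 with cells of 500 counts or more, 13 in EC1 alone (0 members) and 55 without EC2 (1 member). At day 14 against sham there were 10 with DESeq2, 11 rounded up, 6 without the filter and 2 with a mitochondrial term. For day 14 against day 2 there were 404 without the filter, 21 in EC1 alone (0 members), 29 without EC2 (0 members) and 133 in the libraries of higher mitochondrial share (1 member). In aged mice at day 2 there were 108 with DESeq2 (2 members), 135 without the filter (2 members), 25 with cells of 500 counts or more, and 0 in EC1 alone or without EC2. For the difference between ages there were 124 without the filter. With cells bearing leukocyte markers left out, the split of day 14 against day 2 was 254 higher and 403 lower.

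Leaving out 1 library gave 320 to 991 genes at day 2, with 390, 320 and 360 without sham replicates 2, 3 and 4 and 511 and 504 without stroke replicates 3 and 4. It gave 0 to 1 at day 14 against sham (1 without sham replicate 1). It gave 324 to 523 genes and 3 to 6 members for day 14 against day 2, with 348, 366 and 324 genes without day 14 replicates 1, 2 and 4. It gave 0 to 26 genes and 0 to 1 members in aged mice at day 2, where each of the 5 libraries moved the count of genes. Signs also changed among values near 0. These were Slc3a2 at day 2 (-0.37 to 0.029) and for day 14 against day 2 (-0.15 to 0.25), Slco1c1 at day 14 (-0.12 to 0.039), Slc2a1 in aged mice (-0.46 to 0.28), and Slc3a2 in BAM at day 2 (-0.16 to 0.21) and in Mg for day 14 against day 2 (-0.18 to 0.21). For aged minus young they were Slc16a1 (-0.35 to 0.28), Slc2a1 (-0.25 to 0.47), Slc3a2 (-0.36 to 0.11) and Slco1c1 (-0.12 to 0.39).

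Other changes of sign in the log2 fold change follow. In EC1 alone at day 2, Slc16a1 had 0.29, Slc2a1 0.081 and Slc3a2 0.26; Slco1c1 at day 14 had 0.18; for day 14 against day 2, Abcg2 had -0.062 and Slc3a2 -0.47. In aged EC1, Abcb1a had 0.076, Slc16a1 1.17, Slc3a2 0.23, Slco1a4 0.49 and Slco1c1 0.52, and for aged minus young Slc16a1 had 0.89. Without EC2, Slc16a1 (0.18), Slc2a1 (0.025) and Slc3a2 (0.13) changed at day 2, Slc3a2 (-0.25) for day 14 against day 2, Slc16a1 (0.73), Slco1a4 (0.29) and Slco1c1 (0.043) in aged mice, and Slc16a1 (0.55) for aged minus young. In the libraries of higher mitochondrial share, Slc16a1 (0.15), Slc2a1 (0.015) and Slc3a2 (0.35) changed at day 2 and Slc3a2 (-0.37) for day 14 against day 2. With cells of 500 counts or more, Abcg2 (0.068) and Slc3a2 (0.058) changed at day 14, Slc2a1 (-0.19) in aged mice and Slc16a1 (0.034) for aged minus young. Slc2a1 in aged mice also had -0.0025 with DESeq2, -0.032 rounded up, -0.037 without TMM, -0.026 without the filter, -0.016 with only the compared groups and -0.012 with sex. Slco1c1 at day 14 had 0.015 without TMM, 0.023 without the filter and 0.0032 with only the compared groups. Without TMM, Slc16a1 for aged minus young had 0.055, and Slc3a2 in Mg had -0.14 at day 14 and -0.28 for day 14 against day 2. Slc3a2 in Gran at day 14 lost its call without the filter (adjusted p = 0.243) and rounded up (adjusted p = 0.0624). The causes were not tested.

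Replicate numbers did not pair sham with stroke libraries. Deviations of same-numbered libraries correlated at -0.0967 to -0.0163 between sham and day 2 and at -0.119 to 0.151 between sham and day 14, where 0 of 8 and 2 of 8 libraries correlated best with their own number. With the replicate number as a block, 766 genes and 4 members were called at day 2 (Mfsd2a at -0.88, adjusted p = 0.0480), 1 gene at day 14 against sham and 653 for day 14 against day 2. In the 2 stroke times alone, which the numbers were taken to pair, the block gave 953 genes and 6 members, and it changed no call of a member in that comparison. Slc3a2 in BAM at day 2 then had -0.0015, and in Gran at day 14 an adjusted p of 0.0572.

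The depth limits Slc7a5 and Mfsd2a most, which summed to 1022 and 935 counts over all brain cells.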
